A study of Caenorhabditis elegans with 5 samples.

Results

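F-box proteins are the substrate receptors of SCF ubiquitin ligases: the F-box binds a Skp1-type adaptor, and the rest of the protein recruits the target that is to be ubiquitylated. In Caenorhabditis elegans the fbxa, fbxb and fbxc families are greatly expanded, and many of their genes lie in tandem clusters. LIN-42, the worm homolog of the clock protein PERIOD, cycles with the molts, and its ChIP-seq peaks list the chromosomal places where it was enriched. The F-box genes described here are the 8 fbxa genes fbxa-6, fbxa-28, fbxa-31, fbxa-55, fbxa-75, fbxa-77, fbxa-91 and fbxa-221 and the single fbxc gene fbxc-36. These 9 genes were chosen by the peaks themselves: each is the closest gene of at least 1 region in the study's annotated list of regions with a LIN-42::GFP peak in both replicates. They account for 10 of the 412 listed regions and 9 of the 338 closest genes.

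Chromatin came from whole animals of strain HML214, which carries GFP-tagged LIN-42, grown at 20°C and taken, by the study's methods, at the L4 larval stage. An antibody against GFP gave LIN-42::GFP replicates 1 and 2, from separate extracts, and an antibody against LIN-42 itself gave the single library called endogenous LIN-42. By the study's methods, its LIN-42 antibody was raised against a peptide found in the isoforms LIN-42A and LIN-42B. The methods also describe its use on GFP-tagged LIN-42, so the name does not mean untagged protein alone. The other 2 of the 5 samples are input DNA without immunoprecipitation, which enter only as controls of the LIN-42::GFP peak calls. For endogenous LIN-42 the file's own header gives the control as none, whereas the study's methods describe input controls for all peak calls, so its folds and scores are read here as set against the ChIP library itself. All 3 lists come from the same GFP-tagged strain, and whole animals do not show which tissue a peak comes from.

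The lists hold 946, 2580 and 1128 peaks for LIN-42::GFP replicate 1, LIN-42::GFP replicate 2 and endogenous LIN-42. They rest on few distinct reads: 38236, 43991 and 122089 tags were left once MACS had dropped repeats at the same position, with 95%, 99% and 95% of tags counted as redundant. A tag is an aligned read, and the smallest called peaks hold 4 tags with the GFP antibody and 5 with the LIN-42 antibody. Tags are given with 95% exact Poisson intervals, which cover counting error only. The score is 10 times the −log10 of the p-value given by MACS, the peak caller. Folds are those that MACS set at the summit over its estimated background, and they were compared only within a list. Where a list has no peak, enrichment was not detectable at this depth, which does not show that LIN-42 was absent. All positions are those of the ce10 genome.

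Every F-box gene had a peak in both LIN-42::GFP replicates, which the choice of the genes fixes. Of all replicate 1 peaks, 41.8% were shared in this sense, with an overlap of 1 bp or more. With endogenous LIN-42, 8 of the 9 genes also had a peak, the exception being fbxc-36. Counted as peaks, 8 of the 9 shared replicate 1 peaks in the F-box regions overlapped an endogenous peak (88.9%), where 78.2% of all 395 shared peaks and 301 of the other 386 (78.0%) did. The 9 genes are not 9 separate places, since regions within 2 kb of each other formed 7 loci, and the genes were picked with this count known. No test was therefore made of the difference between these shares.

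**Figure D1:**
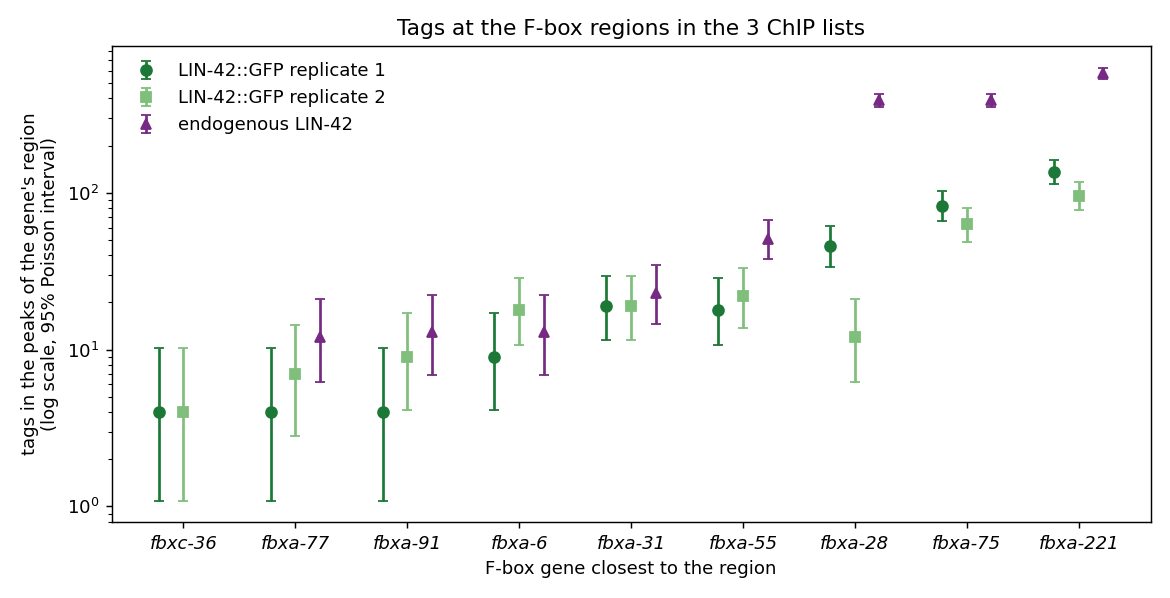
Tags (log axis) in the peaks of each F-box gene's regions, for LIN-42::GFP replicate 1 (circles), LIN-42::GFP replicate 2 (squares) and endogenous LIN-42 (triangles), each symbol a sum over the gene's peaks in a single library and each bar a 95% exact Poisson interval. Tags run from 4 at fbxc-36 to 136 at fbxa-221 in replicate 1. The endogenous value of 389 is the same peak for fbxa-28 and fbxa-75, and fbxc-36 has no endogenous peak.

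The tags of the F-box genes spread widely. In LIN-42::GFP replicate 1 the order was fbxa-221 with 136 tags, fbxa-75 with 83, fbxa-28 with 46, fbxa-31 with 19, fbxa-55 with 18, fbxa-6 with 9 and, with 4 tags each, fbxa-77, fbxa-91 and fbxc-36. In replicate 2 fbxa-221 and fbxa-75 again came first, with 96 and 63 tags summed over their peaks, and fbxc-36 came last with 4. The interval of fbxa-221 in replicate 1 (114 to 161) lay above that of fbxa-75 (66.1 to 103), and that of fbxa-75 above that of fbxa-28 (33.7 to 61.4). Those of fbxa-31, fbxa-55 and fbxa-6 overlapped each other, so the order among them is within counting error. Between the replicates only fbxa-28 had intervals that did not overlap, 46 tags in replicate 1 against 12 (6.20 to 21) in replicate 2. That gap includes a replicate 1 peak of 26 tags with no partner in replicate 2, and over the overlapping pair of peaks the tags were 20 (12.2 to 30.9) and 12.

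At fbxa-31, a coding gene of the family on chromosome III, the peaks were short and sharp in every list. The region spans 1269483 to 1269633, is classed downstream of the gene and lies 1820 bp from its start site. It held 19 tags in either LIN-42::GFP replicate and 23 with endogenous LIN-42, so that the 3 counts lay within each other's intervals. The peaks were 138, 148 and 115 bp long, and the largest gap between their summits was 8 bp. These were the densest F-box peaks of each list, at 13.8, 12.8 and 20 tags per 100 bp. The fold was 461.05 in replicate 1, above 96.5% of that list, and 80.53 with endogenous LIN-42, above 93.7%. In replicate 2 it was 64.46, above 27.6% of the list, although the tags were equal. The fold thus placed fbxa-31 high in 2 lists and low in the other, while by tags it stood above 88.7%, 94.5% and 84.7% of the 3 lists.

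At fbxa-6, the peak lies at the very start of the chromosome III sequence, from 4 to 154. RefSeq names no gene before it. Its tags were 9 in LIN-42::GFP replicate 1 (4.12 to 17.1), 18 in the other replicate (10.7 to 28.4) and 13 in the endogenous list (6.92 to 22.2), all 3 intervals overlapping. The summits lay at 71, 81 and 65, and the peaks were 137, 145 and 126 bp long. In replicate 2 the fold of 371.98 ranked 11 of 2580 peaks, while in replicate 1 it was 69.0, above 27.8% of the list. The region is classed downstream, 2870 bp from the start site. All 6 chromosomes have a listed region that starts within 10 bp of the first base, and that of fbxa-6 is the one on chromosome III. The part of the chromosome end in this peak was not tested.

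At fbxa-55, another coding fbxa gene, endogenous LIN-42 gave the highest count of the 3 libraries. The region on chromosome III from 931222 to 931662 is classed downstream and has the longest start-site distance of the F-box regions, 4615 bp. The LIN-42::GFP replicates had 18 and 22 tags there, and endogenous LIN-42 had 51 (38.0 to 67.1). The endogenous interval lay above both LIN-42::GFP intervals (10.7 to 28.4 and 13.8 to 33.3), but that library also kept more tags in all. The 3 summits fell within 9 bp of each other. By fold the peak stood above 88.6% of the endogenous list at 66.14, and above 2.54% and 5.16% of the LIN-42::GFP lists at 12.62 and 25.63. The replicate 1 peak, with a score of 93.77, falls short of a MACS p-value of 1e-10, at which fbxa-55 leaves the shared count.

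The regions of fbxa-77 and fbxa-91 lie 227 bp apart on chromosome III. In RefSeq the genes are direct neighbors, and fbxa-91 is annotated as a pseudogene, the only one of the 9. The fbxa-77 region, from 1252011 to 1252241, is classed downstream at 2640 bp from the start site. Its tags were 4 and 7 in the LIN-42::GFP replicates and 12 with the LIN-42 antibody. The fbxa-91 region, from 1252469 to 1252776, is also classed downstream, at 1771 bp, and held 4, 9 and 13 tags. At both genes the replicate 1 peak sat at the minimum of 4 tags (1.09 to 10.2). The summits of fbxa-77 nevertheless fell within 12 bp of each other, and those of fbxa-91 within 37 bp. Both genes drop out of the shared count when every peak must hold at least 6 tags, or a MACS p-value of at most 1e-10.

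The single fbxc gene had the fewest tags. The fbxc-36 region on chromosome II, from 940778 to 941066, is classed as a promoter and is listed as the closest of the F-box regions to a start site, at 253 bp. The same list gives −2194 bp to the gene, larger in size than 253 bp. Each LIN-42::GFP replicate held 4 tags, the minimum that was called, and endogenous LIN-42 had no peak there. The replicate 1 peak was 100 bp long and lay inside the 289 bp replicate 2 peak, of which it covered 34.6%. Their summits were 179 bp apart, the widest of all F-box regions with a single peak in each replicate. This pair is lost if the overlap must reach 50% of each peak, if each must hold 6 tags, or at a MACS p-value of 1e-10.

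**Figure D2:**
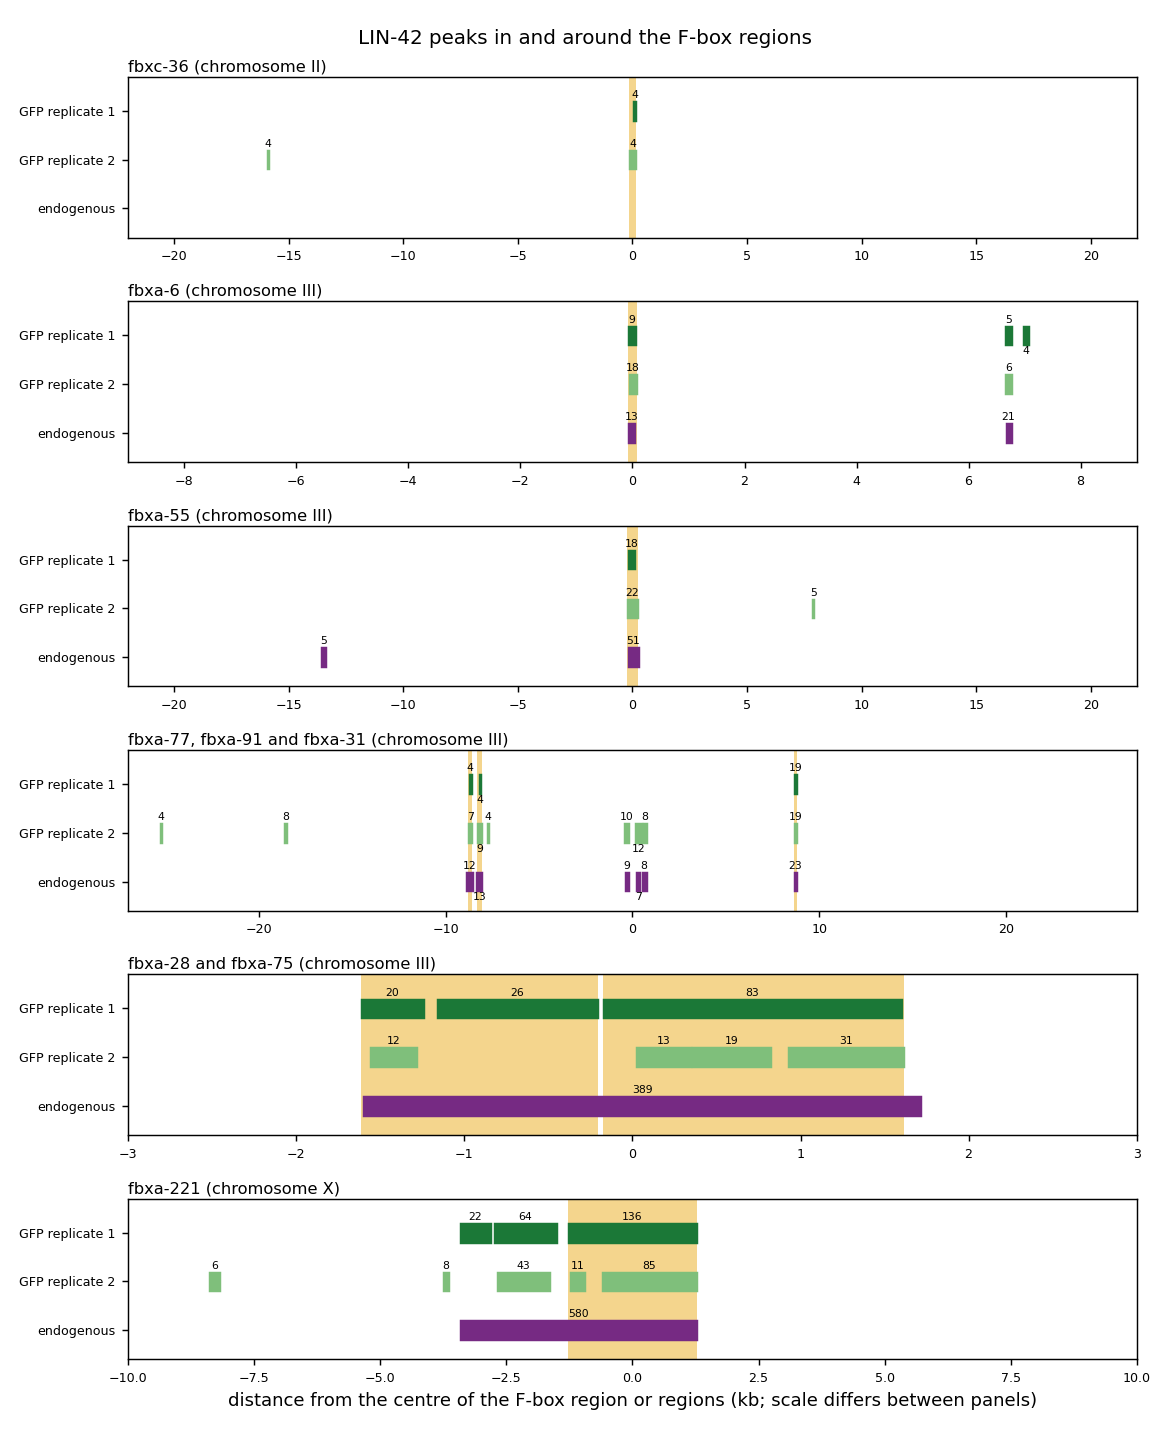
Peaks of LIN-42::GFP replicate 1, LIN-42::GFP replicate 2 and endogenous LIN-42 in and within 20 kb of the F-box regions, drawn to scale as bars with their tags beside them; the horizontal axis is the distance in kb from the middle of the F-box regions of the panel, and shading marks those regions. Short peaks are stacked at fbxa-6, fbxa-31 and fbxa-55, while a single endogenous peak covers the regions of fbxa-28 and fbxa-75, and another runs from fbxa-221 over the neighboring peaks to its left.

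Long peaks of many tags lay in the listed regions of fbxa-28 and fbxa-75, a tandem pair of direct neighbors in RefSeq. The fbxa-75 region, from 1301166 to 1302955 of chromosome III, is classed as a promoter at 1612 bp from the start site and 728 bp from the gene. In LIN-42::GFP replicate 1 it was a single peak of 1779 bp with 83 tags, ranking 8 by tags and 7 by length in its list. In replicate 2 the same stretch held 3 peaks of 13, 19 and 31 tags, which sum to 63 (48.4 to 80.6). The replicates thus differed in how the stretch was divided, while their summed tags had overlapping intervals.

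The regions listed under fbxa-28 number 2, both classed downstream. The first, from 1299726 to 1300097 and 2015 bp from the start site, held 20 and 12 tags in the LIN-42::GFP replicates, with summits 32 bp apart. The second overlaps it and extends to 1301137, at 2562 bp from the start site, by the replicate 1 peak of 963 bp and 26 tags. That peak overlaps no replicate 2 peak, the nearest lying 117 bp away, so the second region brings no further place of agreement. Endogenous LIN-42 had a single peak over the listed regions of both genes, from 1299738 to 1303059. It held 389 tags (351 to 430) over 3322 bp, ranked 4 by tags and 5 by length in its list, and had a fold of 8.70, above 4.70% of the list. Its summit lay 9 bp from a replicate 2 summit at fbxa-75 but 2027 bp from the replicate 1 summit of the first fbxa-28 region. The endogenous LIN-42 calls of fbxa-28 and fbxa-75 are therefore a single peak, whose summit is in the fbxa-75 region.

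The most tags of any F-box region were at fbxa-221, on chromosome X from 111687 to 114261. The region is classed as a promoter and is listed at 1727 bp from the start site and 439 bp from the gene. LIN-42::GFP replicate 1 had a single peak of 2575 bp, the longest of its list, with 136 tags, ranking 2. Replicate 2 had a peak of 293 bp with 11 tags and a peak of 1887 bp with 85 tags, together 96 (77.8 to 117), below the replicate 1 count but with an overlapping interval. The endogenous peak, from 109554 to 114259, held 580 tags (534 to 629) over 4706 bp, which is the most tags and the greatest length of that list. Its fold was 6.65, above 1.77% of the list, and the replicate 1 fold of 15.29 was above 4.55% of its list. In replicate 2 the longer peak had a fold of 76.97, above 38.3%. The endogenous summit, at 109798, falls outside the fbxa-221 region, 2082 bp from the replicate 1 summit. It lies instead in the neighboring peaks assigned to Y73B3A.5, which RefSeq names elk-2. The endogenous call of fbxa-221 thus rests on the extent of a long peak and not on a summit in its region.

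**Figure D3:**
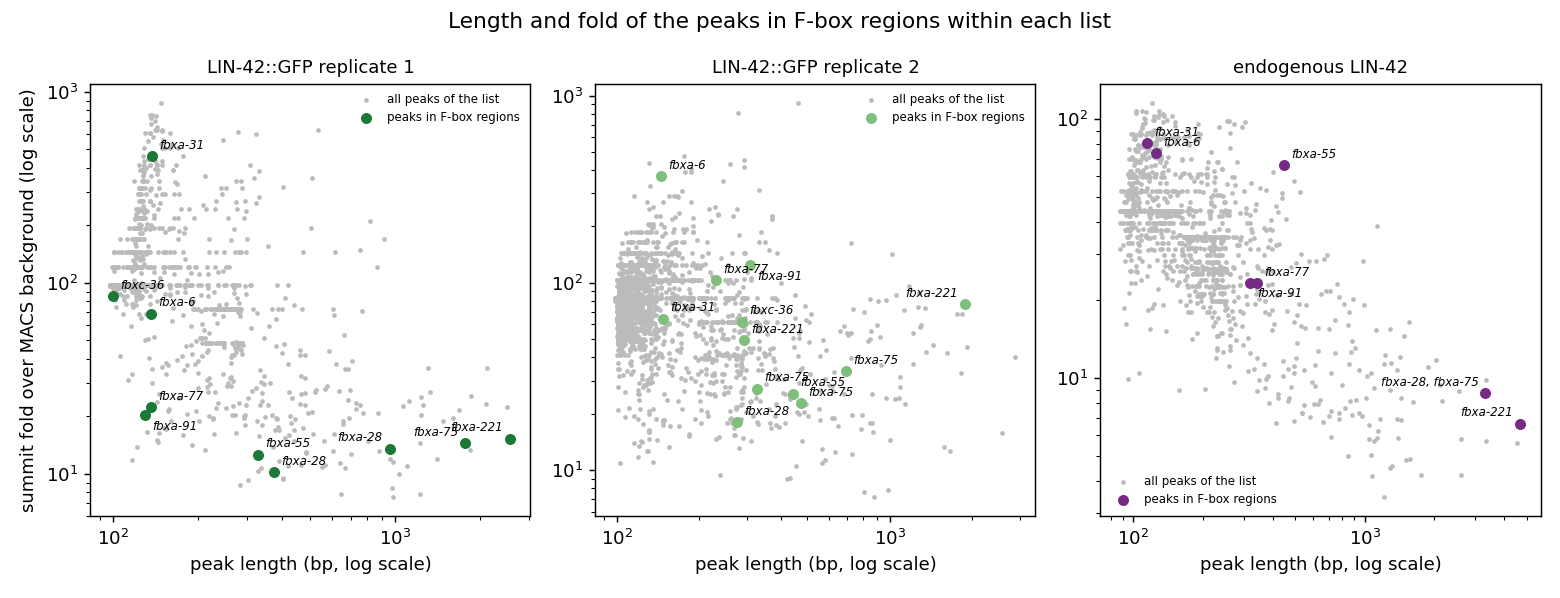
Peak length in bp against the fold at the summit over the MACS background, both on log axes, for every peak of each list (gray) and for the peaks in F-box regions (colored, with the gene's name). In replicate 1 the F-box peaks range from fbxa-31, short and of high fold at 138 bp and 461.05, to fbxa-221, long and of low fold at 2575 bp and 15.29, while fbxa-77 and fbxa-91 are short with folds of 22.3 and 20.24.

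Length and fold set the F-box peaks into a wide range within each list. In LIN-42::GFP replicate 1 their 10 peaks ran from 100 to 2575 bp with a median of 233 bp, beside 153.5 bp for the other 386 shared peaks. Of the 10, the fbxa-28 peak of 963 bp is not shared with replicate 2. Over the 9 shared ones the median length was 138 bp, that of the fbxa-31 peak and below 153.5 bp. The median fold of the 10 was 17.8, beside 128 for the other shared peaks and 97.06 for the whole list. In replicate 2 the 12 peaks had a median length of 300.5 bp, beside 167 bp, and a median fold of 55.8, beside 59.35. The 7 endogenous peaks had a median length of 343 bp, beside 133 bp for the other 292 in both LIN-42::GFP lists, and a median fold of 23.23, beside 52.65. Median tags were 18.5, 15.5 and 23, beside 11, 11 and 16.5. The F-box medians thus held more tags in all 3 lists and had lower folds, by little in replicate 2. By length they were greater in replicate 2 and endogenous LIN-42, and in replicate 1 only with the unshared peak counted. They are descriptions of few peaks, several from the same locus, and were not tested.

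By the annotation, 7 of the 10 F-box regions are classed downstream of a coding gene and 3, those of fbxc-36, fbxa-75 and fbxa-221, as promoters. The 7 are not separate places, since the overlapping regions of fbxa-28 count as 2 of them and fbxa-77 and fbxa-91 lie in a single locus. None is in an intron. Among the other 402 regions 24.9% are downstream of a coding gene, 32.8% in a coding-gene promoter and 24.6% in an intron. The distance to the start site ran from 253 to 4615 bp with a median of 1917.5 bp, beside 2405 bp for the other regions, and was within 2000 bp for 5 of the 10. The long promoter regions of fbxa-75 (1790 bp) and fbxa-221 (2575 bp) are listed nearer to their genes, at 728 and 439 bp. The list gives a negative distance to the gene for 2 F-box regions, fbxc-36 (−2194 bp) and fbxa-31 (−1820 bp, the size of its start-site distance), and the meaning of the sign is not given in the sources used here. For fbxa-31 the downstream class is therefore not borne out by its distances. At fbxc-36 the distance to the gene is larger in size than the 253 bp to the start site, so its promoter class is not borne out either. In tandem clusters the closest gene is a matter of small distances, so a region between neighboring F-box genes is not shown to belong to the gene it is listed under.

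The F-box regions share a position. It was not a rule of their choice, but choosing by family is not independent of place, since many of these genes lie in clusters. All 10 lie within the first 1.31 Mb of their chromosome, where 41 of the other 402 regions (10.2%) lie. The limit was set by the farthest of the 10, which fixes that count. The share of all fbxa and fbxc genes within it was not counted. On chromosome III, which holds 8 of the 10, 12 of the other 65 regions lie there. Among their genes, fbxa-77, fbxa-91, fbxa-31, fbxa-28 and fbxa-75, sit in a single stretch of the chromosome. The gap from fbxa-91 to fbxa-31 is 16706 bp and that from fbxa-31 to fbxa-28 is 30092 bp, against 320348 bp from fbxa-55 to fbxa-77. In RefSeq order this stretch is dense in F-box genes: of the 10 nearest genes, 5 on each side, 9 are fbxa, fbxb or fbxc genes at fbxa-28 and at fbxa-75, 8 at fbxa-77 and at fbxa-91, and 7 at fbxa-31. The count is 6 at fbxc-36, 4 at fbxa-55 and 2 at fbxa-221. At fbxa-6, with genes on a single side, it is 0 of 5.

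**Figure D4:**
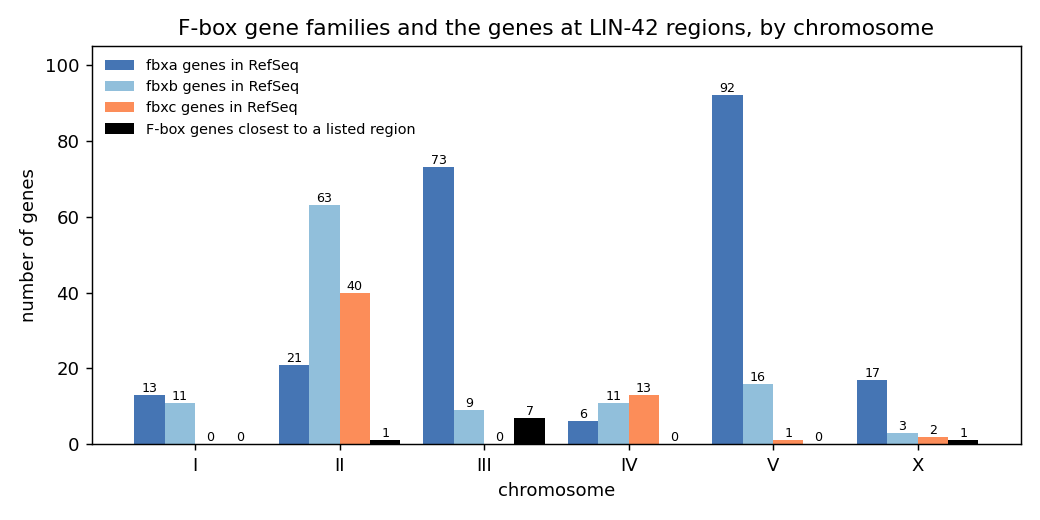
Number of fbxa, fbxb and fbxc genes on each chromosome in RefSeq, pseudogenes included, beside the number of F-box genes closest to a listed region (black bars). Of the 9 genes at listed regions 7 are on chromosome III, which holds 73 fbxa genes, and none is on chromosome V, which holds 92. That zero is near what the share over all genes, 1.28%, would give.

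Most genes of these families had no listed region. Of 222 fbxa genes in RefSeq, 52 of them pseudogenes, 8 were the closest gene of a listed region (3.60%), as was 1 of 56 fbxc genes (1.79%) and none of 113 fbxb genes. Over all protein-coding genes and pseudogenes it was 281 of 21904 (1.28%). Chromosome V, with the most fbxa genes, 92, and 93 listed regions, had none of these genes at a listed region. At the share of all genes few of 92 fbxa or 113 fbxb genes would be met, so both zeros are no result about them. Chromosome III, with 73 fbxa genes and 73 listed regions, had 7. Since 5 of these 7 come from the stretch described above, they are not separate draws from the family, and the shares were not tested. Among genes that work with F-box proteins, none of the 21 skr genes, which encode Skp1-type adaptors, was the closest gene of a region. None of the 43 bath and 49 math genes was either. At the share of all genes, families of this size would hardly be met, so these zeros are no result about them. The math and bath families encode proteins with a MATH domain, with a BTB domain as well in the bath genes, a type of cullin adaptor. Of 14 further ubiquitin ligase genes, only lin-23, which encodes an F-box protein that restrains cell proliferation, was closest to a region. Its intron peak on chromosome II, 219 bp from the start site, held 16, 19 and 15 tags in the 3 lists.

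Within 20 kb of the F-box regions, and outside them, were 21 further peaks, of which LIN-42::GFP replicate 1 had 4, replicate 2 had 12 and endogenous LIN-42 had 5. Of these, 3, 5 and 4 overlapped a peak of another list. The other 9 peaks were found in a single list, 7 of them in replicate 2, which has the most peaks. The farthest peak inside the window lay 16377 bp from the fbxa-77 region and the next one outside it 22907 bp from the fbxa-55 region, both in replicate 2 with 4 tags. These neighbors thus include peaks at the minimum, 5 in all.

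Only some of these neighbors recurred between lists. Next to fbxa-221, the peaks listed under Y73B3A.5 held 22 and 64 tags in LIN-42::GFP replicate 1 and 43 in replicate 2, and the nearest came within 213 bp of the fbxa-221 region. With the fbxa-221 peaks they formed the stretch that the endogenous list joins into its longest peak. At 6576 bp from the fbxa-6 region, a peak from 6731 to 6862 of chromosome III, in an intron of npr-30 by the annotation, appeared in all 3 lists with 5, 6 and 21 tags. Between fbxa-91 and fbxa-31, from 1260371 to 1261595, replicate 2 had 3 peaks of 10, 12 and 8 tags, and endogenous LIN-42 had 3 overlapping ones of 9, 7 and 8 tags. Replicate 1 had none there, so this run in the F-box stretch is in no listed region. Near fbxc-36 the single neighbor was a replicate 2 peak of 4 tags, 15704 bp away.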

How the data were processed

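The authors aligned 76-nucleotide single-end reads to ce10 with Bowtie2, kept uniquely aligned reads and called peaks on each library alone with MACS 1.4.2 at a p-value of 1e-05. Reads shared by near-identical gene copies are thereby lost. The deposited count of tags per peak was not normalized and followed removal of repeated tags at a position. The deposited score is −log10 of the p-value from MACS, multiplied by 10. The deposited fold is the ratio of summit tags to the MACS background, which for LIN-42::GFP is not stated to be the input at that place. A false discovery rate (percent) stands in the authors' LIN-42::GFP lists alone. The input names in those headers do not match the sample titles.

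Starts were read as 1-based. Peaks were taken as in a region, or as shared, at an overlap of 1 bp or more. Region borders, class, closest gene and distances came from the study's annotated region list, whose 412 regions all have borders of LIN-42::GFP peaks. RefSeq (WBcel235) gave names, types, chromosomes and neighbors of genes, and all 9 F-box genes matched. No coordinates were converted. All 9 genes, the closest genes of listed regions within 20 kb, and genes of a ubiquitin ligase list at a listed region were named. Members, lists and alternatives were chosen with earlier results of these data known. No test was run. The overlap code was tested on simulated data. Python 3.11.15, pandas 2.3.3, SciPy 1.17.1, NumPy 2.4.6 and Matplotlib 3.10.9 were used. Alternatives changed the overlap, the p-value, tag and false discovery rate limits, the window and the replicates used.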

Additional observations from a re-analysis of the deposited data

How the results depend on the processing

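The count of 9 F-box genes with a peak in both LIN-42::GFP lists went to 6 at an overlap of 50% of each peak (without fbxa-75, fbxa-91 and fbxc-36), to 6 at 6 or more tags (without fbxa-77, fbxa-91 and fbxc-36) and to 5 at a MACS p-value of 1e-10 (without fbxa-55, fbxa-77, fbxa-91 and fbxc-36). The count of 8 with endogenous LIN-42 went to 4 at an overlap of 50%, to 5 with summits within 200 bp (without fbxa-28, fbxa-75, fbxa-221 and fbxc-36), to 6 at 6 or more tags and to 5 at 1e-10. For these counts the endogenous peak was set against the replicate 1 peak alone. At fbxa-75 the endogenous summit lay 758 bp from that of replicate 1 but 9 bp from a replicate 2 summit. At a false discovery rate of at most 5% the counts of genes were 9 and 8. That limit removes the longer fbxa-221 peak of replicate 2 (85 tags, 11.11%), so fbxa-221 stays there by its peak of 11 tags. With either LIN-42::GFP replicate left out the counts were also 9 and 8, but the choice of genes with a peak in both replicates fixes the 9, which says nothing about stability. The share of the remaining list's other peaks with an endogenous peak was then 15.4% to 41.9%, in place of 78.0%, since all its peaks are counted. The 21 neighboring peaks became 18 within 10 kb and 36 within 50 kb, and the 7 loci became 6 or 9 when regions were joined within 20 kb or only where they overlap. Few tags limit part of this: fbxa-77, fbxa-91 and fbxc-36 rest on 4 tags in LIN-42::GFP replicate 1. In that replicate fbxa-28, fbxa-75 and fbxa-221, which are lost by the summit limit, hold the most tags. In replicate 2 fbxa-28 held 12, fewer than fbxa-6, fbxa-31 and fbxa-55. No paired analysis was possible because the input libraries, which share replicate numbers with LIN-42::GFP, enter only as controls of the peak calls and endogenous LIN-42 is a single library.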

Other observations

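In LIN-42::GFP replicate 2 the highest false discovery rates went with the highest MACS scores. The 18 peaks over 5% had scores of at least 679.16, above 99.3% of that list, and the longer fbxa-221 peak, with a score of 806.65 and a rank of 9, was given 11.11%. The weakest F-box peak of that list by score, fbxc-36 at 63.8, was given 0.20%, and the median of the list was 0.31%. In replicate 1 every peak was given 0%.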
